A study of Mus musculus with 6 samples.

Results

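The 10 genes described here encode proteins that are used to sort mammary epithelial cells or to mark mammary stem cells (MaSCs) and progenitors: *Cd24a*, *Epcam*, *Cd44*, *Procr*, *Tspan8*, *Bcl11b*, *Thy1*, *Ly6a*, *Prom1* and *Aldh1a1*. They were taken by symbol from the deposited table of estimated counts, and all 10 of the 10, out of 54418 gene identifiers in the table, passed the filter on low counts that left 21236 genes for the test. RNA was measured by RNA-seq in mammary epithelial cells isolated by fluorescence-activated cell sorting from 4-week-old C57BL/6 females. The 3 WT mice were Glis2 +/+ and the 3 Glis2 KO mice carried the germline knockout of *Glis2*, with 1 library per mouse and no other treatment in either group. Cells were stained for the lineage antigens TER-119, CD31 and CD45, for CD24 and CD49f, and for viability, and the sources used here do not state which CD24 and CD49f gates went into these libraries. The knockout was present in every cell of the mouse, so the effect of *Glis2* loss within the epithelium cannot be told apart from that in other tissues.

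The mammary duct has an outer basal layer, which holds contractile myoepithelial cells and the cells that regenerate a gland on transplantation, and an inner luminal layer with hormone-sensing cells and secretory progenitors. In the mouse gland, luminal cells carry much CD24 and EpCAM and little CD49f (integrin alpha 6), whereas basal cells carry less CD24 and more CD49f, and antibodies against these proteins separate the layers. Surface proteins such as PROCR, TSPAN8 and CD44 and the transcription factor BCL11B have been used to enrich for stem cells within the basal layer, and several of the genes are also active in fibroblasts, blood vessels or lymphocytes, which share the tissue.

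The pairs of coding stretches are shown because they bear on how far the counts of *Aldh1a1* and *Ly6a* can be separated from those of their close relatives. Reads were 40 nt long, and the stretches were taken from GENCODE M21 transcripts on GRCm38 (mm10), around the longest run of bases that both coding sequences share. Capitals mark the bases that differ. The first pair covers coding positions 727 to 886 in *Aldh1a1*, exons 7 to 9 of 13 (chr19:20624805-20630701, + strand), and in *Aldh1a7*, exons 7 to 9 of 13 (chr19:20708299-20714701, - strand). It differs at 6 of 160 bases and holds a shared run of 100 bases.
Aldh1a1: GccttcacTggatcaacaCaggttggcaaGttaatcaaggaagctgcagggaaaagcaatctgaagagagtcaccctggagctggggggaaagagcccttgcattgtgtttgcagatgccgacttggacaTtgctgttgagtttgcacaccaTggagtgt
Aldh1a7: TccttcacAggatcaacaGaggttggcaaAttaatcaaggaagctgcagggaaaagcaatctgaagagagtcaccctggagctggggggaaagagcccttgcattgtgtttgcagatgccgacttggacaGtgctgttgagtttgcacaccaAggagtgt
The second pair covers coding positions 7 to 111 in *Ly6a*, exons 1 to 2 of 3 (chr15:74996528-74997598, - strand), and in *Ly6c1*, exons 2 to 3 of 6 (chr15:75047429-75048505, - strand). It differs at 7 of 105 bases, with a shared run of 45.
Ly6a: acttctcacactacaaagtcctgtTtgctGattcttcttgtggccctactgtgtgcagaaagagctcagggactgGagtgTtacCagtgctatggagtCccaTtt
Ly6c1: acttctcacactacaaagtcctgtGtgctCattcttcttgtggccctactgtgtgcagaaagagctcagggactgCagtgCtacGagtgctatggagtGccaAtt
The third pair covers coding positions 303 to 402 in *Ly6a*, in exon 3 of 3 (chr15:74995265-74995364, - strand), and 294 to 393 in *Ly6c2*, in exon 4 of 4 (chr15:75108546-75108645, - strand). It differs at 4 of 100 bases, with a shared run of 52.
Ly6a: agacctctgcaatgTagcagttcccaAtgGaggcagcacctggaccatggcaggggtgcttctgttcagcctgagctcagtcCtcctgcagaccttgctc
Ly6c2: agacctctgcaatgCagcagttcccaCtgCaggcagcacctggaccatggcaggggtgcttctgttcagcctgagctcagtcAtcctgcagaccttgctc
Over all annotated transcripts, 31.9% of the 31-base words of *Ly6a* also occurred in another gene, against 7.48% for *Prom1*, 5.70% for *Aldh1a1*, 4.98% for *Cd24a* and 0% for *Procr*, and at most 1.26% for each of the remaining 5 genes.

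Total counts lay between 24996524 and 31393917 per library. *Glis2* itself stood at 21.8, 23.2 and 19.6 CPM (counts scaled to the same library size with edgeR's TMM factors, per 1000000 counts) in the WT libraries and at 10.1, 17.0 and 16.3 CPM in the Glis2 KO libraries, so its transcript was still present in the knockout. Its log2 fold change was -0.57 (SE 0.22, edgeR quasi-likelihood test, adjusted p = 0.906), with the lower value in all 3 Glis2 KO libraries, and it was -0.37 without Glis2 KO replicate 1. On the deposited TPM scale the *Glis2* values overlapped, at 2.82, 4.19 and 2.08 TPM in WT and at 3.17, 2.75 and 2.75 TPM in Glis2 KO, with a log2(TPM + 1) difference of -0.02. The libraries of each genotype differed in the RNA of cell type markers. Summed over 10 luminal genes, the level lay between 3391 and 5659 CPM in WT and between 3429 and 5721 CPM in Glis2 KO, and over 10 fibroblast genes between 2321 and 7809 CPM in WT and between 2641 and 5959 CPM in Glis2 KO. In both genotypes replicate 2 had the highest luminal and the lowest fibroblast level. Since these are bulk libraries, fewer cells of a type and less RNA per cell cannot be told apart. No 2 libraries were copies of each other.

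None of the 10 genes was called different between Glis2 KO and WT cells, where a call needed an adjusted p no higher than 0.05 and a log2 fold change of 0.58 or more in size. The same test called 0 of all 21236 genes (0%), so this count does not set the 10 genes apart. DESeq2 with apeglm shrinkage called 45 of 27000 genes (0.167%) and 0 of the 10. In the edgeR test 5 genes were higher and 5 lower on average in Glis2 KO cells, with a median log2 fold change of -0.05, against 0.01 over all genes tested. *Cd44* was the single gene with an unadjusted p under 0.05, a level that 5.32% of all genes reached, and the single gene whose values did not overlap between the genotypes, which held for 11.7% of all genes.

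**Figure D1:**
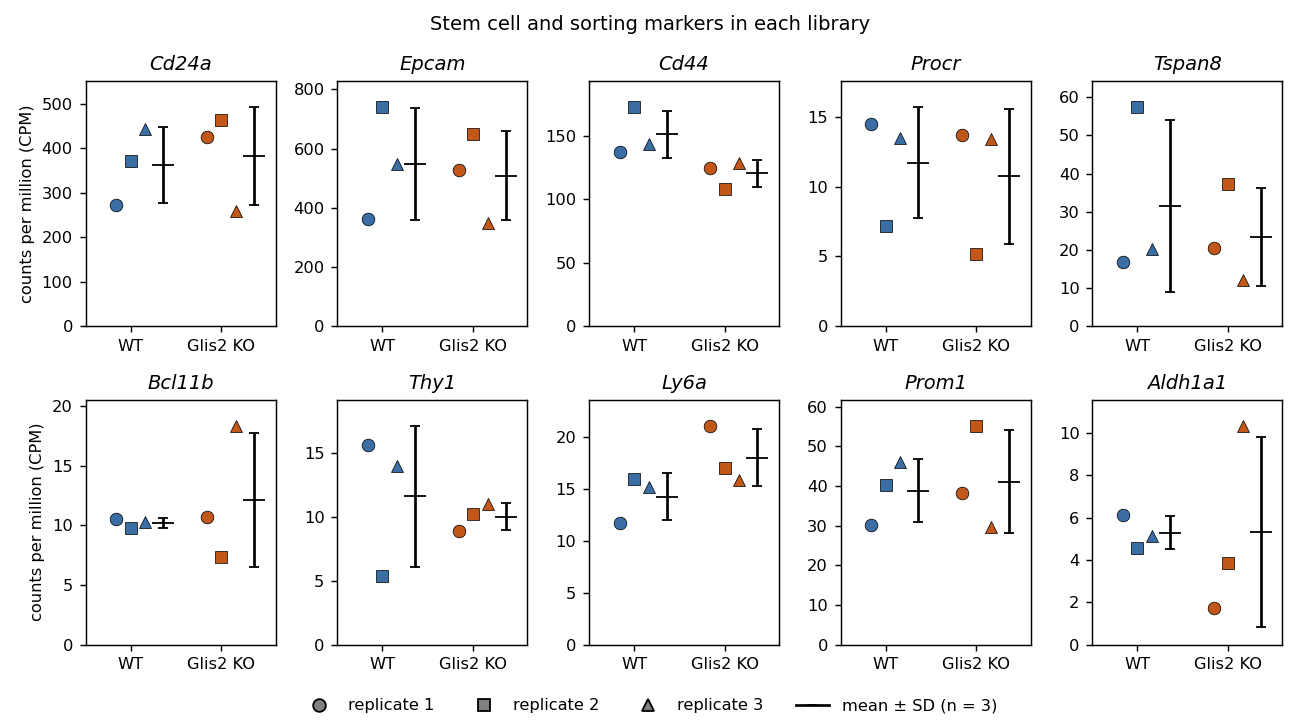
CPM of the 10 genes in each library, 1 panel per gene with its own linear axis from 0. Symbols give the replicate number, which is not known to link mice across genotypes, and bars the mean ± SD of 3 libraries. Only the *Cd44* panel shows the genotypes apart, with 137 to 172 CPM in WT and 108 to 129 CPM in Glis2 KO.

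Per transcript length, the 10 genes spanned more than 2 orders of magnitude. *Epcam* had the highest mean over the 6 libraries (73.9 TPM, counts scaled for transcript length and to the same sum in each library), followed by *Cd24a* (60.6 TPM). *Cd44* (10.7 TPM), *Tspan8* (7.14 TPM), *Ly6a* (5.04 TPM), *Prom1* (4.87 TPM) and *Thy1* (3.20 TPM) formed a middle range, with *Procr* (1.96 TPM) below them and *Bcl11b* (0.598 TPM) and *Aldh1a1* (0.594 TPM) lowest. *Epcam* and *Cd24a* lay at a median percentile of 99.0 and 98.8 among the genes tested, whereas *Bcl11b* and *Aldh1a1* lay at 37.1 and 37.3. The steps that held in all 6 libraries were *Epcam* over *Cd24a*, *Cd24a* over *Cd44*, *Prom1* over *Thy1* and *Procr* over *Bcl11b*. *Tspan8* and *Ly6a*, *Ly6a* and *Prom1*, and *Bcl11b* and *Aldh1a1* changed places in 3 of 6 libraries, so the order within these pairs does not exceed the spread between libraries. TPM values are low throughout because *Gm23935*, annotated as a microRNA gene, took 83.0% to 85.7% of the TPM of each library but 3.09% to 3.92% of its counts.

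**Figure D2:**
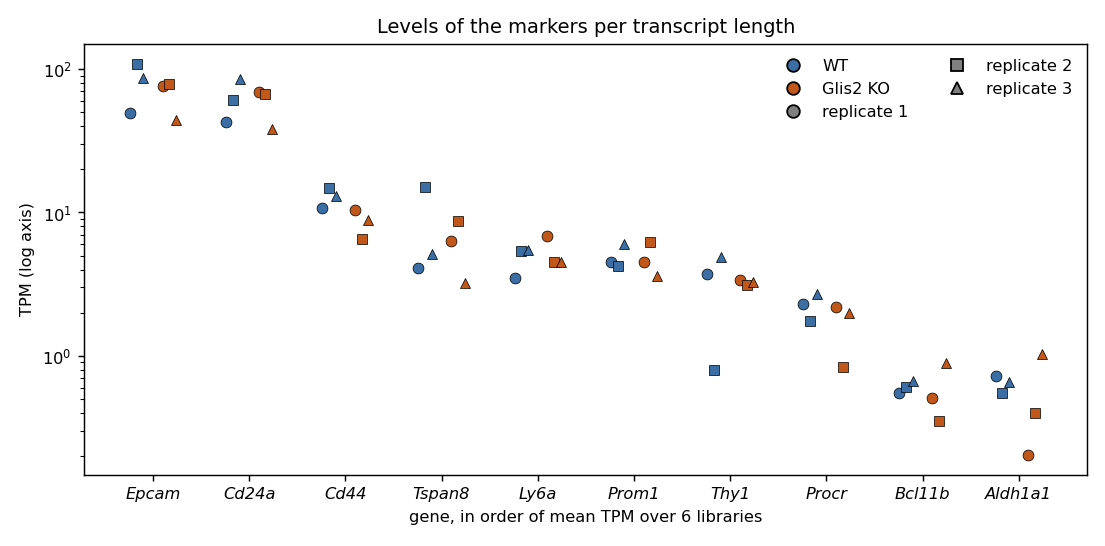
TPM of the 10 genes in each library on a log axis, in order of their mean over 6 libraries. *Epcam* and *Cd24a* stand above the rest in every library, and *Thy1* has 1 low point, WT replicate 2 at 0.791 TPM.

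The sorting antigens came first. *Cd24a* encodes a small glycosylated membrane protein, and CD24 was 1 of the stains in the sort. *Cd24a* (ENSMUSG00000047139, chr10:43578284-43584265, + strand) stood at 272, 372 and 445 CPM in WT and at 426, 465 and 258 CPM in Glis2 KO. Each genotype thus had 1 low library, at 272 and 258 CPM, and the others between 372 and 465 CPM, and the log2 fold change was 0.08 (SE 0.24, 95% interval -0.47 to 0.62, edgeR adjusted p = 0.985). *Epcam* (ENSMUSG00000045394, chr17:87635979-87651129, + strand), which encodes an epithelial adhesion protein, stood at 361, 739 and 546 CPM in WT and at 528, 649 and 349 CPM in Glis2 KO. Replicate 2 was highest in both genotypes and the ranges overlapped between 361 and 649 CPM, with a log2 fold change of -0.11 (SE 0.28, 95% interval -0.75 to 0.53, edgeR adjusted p = 0.981).

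The other antigens of the stain are given for comparison. *Itga6*, which encodes CD49f, stood between 561 and 741 CPM in WT and between 587 and 768 CPM in Glis2 KO, with a log2 fold change of 0.08 (SE 0.14). The lineage antigens CD31 and CD45 had RNA in every library. *Pecam1* (CD31, on endothelial cells) lay between 44.6 and 160 CPM in WT and between 72.1 and 198 CPM in Glis2 KO, and *Ptprc* (CD45, on leukocytes) stood at 11.0, 7.98 and 9.67 CPM in WT and at 14.8, 14.5 and 38.7 CPM in Glis2 KO. The *Ptprc* values did not overlap between the genotypes (log2 fold change 1.25, SE 0.39, edgeR adjusted p = 0.906), and the fold change was 0.60 without Glis2 KO replicate 3. On the TPM scale the *Ptprc* values overlapped, with a log2(TPM + 1) difference of 0.43 and a log2(TPM + 0.1) difference of 0.77.

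*Cd44* encodes the hyaluronan receptor, which is high on basal epithelial cells and on many stromal cells and lymphocytes. *Cd44* (ENSMUSG00000005087, chr2:102811141-102901665, - strand) stood at 137, 172 and 144 CPM in WT and at 124, 108 and 129 CPM in Glis2 KO. The means were 151 ± 18.8 CPM in WT and 120.3 ± 10.9 CPM in Glis2 KO (SD, n = 3 each), and all 3 Glis2 KO libraries lay below all 3 WT libraries, by a narrow gap between 129 and 137 CPM. The log2 fold change was -0.33 (SE 0.12, 95% interval -0.61 to -0.05, edgeR unadjusted p = 0.0264, adjusted p = 0.906), and an exact two-sided permutation test of the log2 CPM values gave p = 0.1, the smallest that 3 against 3 libraries allow. Lower values in Glis2 KO without overlap were found for 5.50% of all genes, and an unadjusted p under 0.05 with a lower value for 2.33%. *Cd44* was lower in Glis2 KO under each of the 15 alternatives. Its unadjusted p exceeded 0.05 without WT replicate 2 (0.103), without Glis2 KO replicate 1 (0.053) and without Glis2 KO replicate 2 (0.0899). On the deposited TPM scale *Cd44* stood at 10.8, 14.7 and 13.0 TPM in WT and at 10.5, 6.55 and 8.92 TPM in Glis2 KO, again without overlap, and the log2(TPM + 1) difference was -0.53 (SE 0.19, limma adjusted p = 0.738).

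*Procr*, *Tspan8* and *Bcl11b* have each been used to mark stem cells of the basal layer. *Procr* (ENSMUSG00000027611, chr2:155751117-155755471, + strand), the receptor of activated protein C, stood at 14.5, 7.18 and 13.5 CPM in WT and at 13.7, 5.14 and 13.4 CPM in Glis2 KO. The pattern was the same in both genotypes, with replicate 2 at roughly 5 to 7 CPM and the other libraries close to 14. The log2 fold change of *Procr* was -0.13 (SE 0.41, 95% interval -1.05 to 0.80, edgeR adjusted p = 0.985), so that the interval reaches from 0.481 to 1.74 times the WT level.

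*Tspan8* (ENSMUSG00000034127, chr10:115816832-115849893, + strand) encodes a tetraspanin of the plasma membrane. It stood at 16.9, 57.4 and 20.2 CPM in WT and at 20.5, 37.3 and 12.1 CPM in Glis2 KO, again with replicate 2 highest in each genotype and a 4.77-fold span over the 6 libraries. The log2 fold change was -0.44 (SE 0.52, 95% interval -1.63 to 0.76, edgeR adjusted p = 0.966). This direction rested on 1 library, since without WT replicate 2 the *Tspan8* fold change was 0.33.

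*Bcl11b* (ENSMUSG00000048251, chr12:107910403-108003602, - strand) encodes a zinc finger transcription factor that is also required in developing T cells. It stood at 10.5, 9.77 and 10.3 CPM in WT, values close to each other, and at 10.7, 7.38 and 18.4 CPM in Glis2 KO. Glis2 KO replicate 3 lay above the other 5 libraries and Glis2 KO replicate 2 below them, and the log2 fold change was 0.25 (SE 0.32, 95% interval -0.48 to 0.98, edgeR adjusted p = 0.971). Without Glis2 KO replicate 3 it was -0.19. That library also held the highest summed level of 10 T cell genes (34.1 CPM, against 11.4 to 21.1 CPM in the other 5) and the highest *Ptprc* level, and it was the highest in the summed basal genes (7696 CPM) and macrophage genes (35.6 CPM) too, and the part of lymphocyte RNA in the *Bcl11b* value was not tested. *Bcl11a*, the paralog that is active in luminal progenitors, lay between 21.6 and 26.0 CPM in WT and between 24.4 and 32.2 CPM in Glis2 KO, with a log2 fold change of 0.31 (SE 0.16, edgeR adjusted p = 0.919).

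*Thy1* (ENSMUSG00000032011, chr9:44043384-44048579, + strand) encodes CD90, a surface protein of fibroblasts, T cells and some basal epithelial cells. It stood at 15.6, 5.32 and 13.9 CPM in WT and at 8.87, 10.2 and 11.0 CPM in Glis2 KO. The Glis2 KO values lay within the WT range, and the log2 fold change was -0.21 (SE 0.37, 95% interval -1.05 to 0.63, edgeR adjusted p = 0.977). Without WT replicate 2 it was -0.56 with an unadjusted p of 0.0335 (edgeR adjusted p = 0.815), and in the log2(TPM + 1) values its sign was opposite, at 0.20.

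*Thy1* also differed from the other genes in the transcript length behind its estimates. Salmon divides counts by an effective length that depends on which isoforms it assigns reads to, so counts per TPM, relative to the median gene of the library, follow that length. For *Thy1* this value was 0.521, 0.917 and 0.416 in WT and 0.347, 0.366 and 0.391 in Glis2 KO. The effective length in WT replicate 2 was thus 2.64 times that in Glis2 KO replicate 1, a span that 0.708% of 9601 well-measured genes reached or exceeded (median 1.22). The span was 1.54 for *Prom1*, 1.47 for *Procr*, 1.35 for *Tspan8* and 1.27 for *Bcl11b*, and for the remaining genes at most 1.17, down to 1.00 for *Epcam*.

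**Figure D3:**
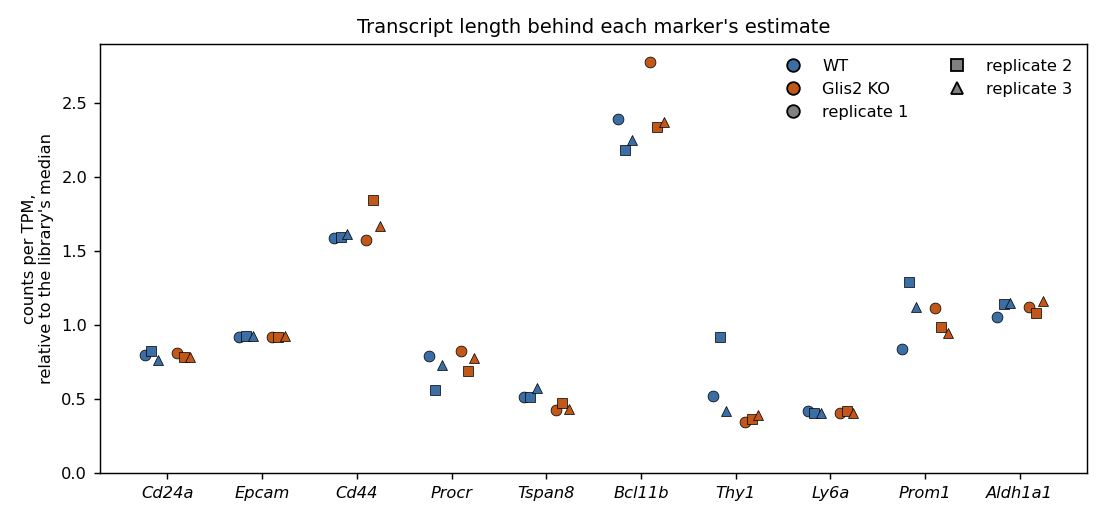
Counts per TPM of each gene divided by the median of the same library, a measure without unit that follows the effective transcript length, for 6 libraries on a linear axis from 0. *Thy1* in WT replicate 2 (0.917) stands apart from the other *Thy1* values (0.347 to 0.521), whereas the *Epcam* values nearly coincide.

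*Ly6a*, *Prom1* and *Aldh1a1* subdivide the luminal layer in common sorting schemes. *Ly6a* (ENSMUSG00000075602, chr15:74994877-74998031, - strand) encodes SCA-1, a small anchored surface protein found on hormone-sensing luminal cells and on endothelial and stromal cells. It stood at 11.7, 15.9 and 15.2 CPM in WT and at 21.1, 17.0 and 15.9 CPM in Glis2 KO. The genotypes met at 15.9 CPM, with the other 2 Glis2 KO libraries above all WT libraries. The log2 fold change was 0.33 (SE 0.20, 95% interval -0.12 to 0.79, edgeR adjusted p = 0.932), and *Ly6a* was higher in Glis2 KO under each of the 15 alternatives (0.12 to 0.45).

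*Ly6a* shares the stretches printed above with *Ly6c1* and *Ly6c2*, and 8.42% of its 31-base words with *Ly6i*. Its counts were therefore also added to those of *Ly6c1*, *Ly6c2* and *Ly6i*. *Ly6a* made up between 43.2% and 81.8% of this sum, which stood at 27.1, 19.4 and 25.5 CPM in WT and at 35.5, 23.8 and 32.5 CPM in Glis2 KO, with a log2 fold change of 0.35 (SE 0.20, edgeR adjusted p = 0.924). *Ly6c1* alone, a gene of endothelial cells and leukocytes, lay between 3.29 and 15.0 CPM in WT and between 6.81 and 15.1 CPM in Glis2 KO, and was lowest in replicate 2 of each genotype, where the 10 endothelial genes were lowest too (183 CPM in WT and 278 CPM in Glis2 KO).

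*Prom1* (ENSMUSG00000029086, chr5:43993620-44102032, - strand) encodes CD133, a pentaspan membrane protein of hormone-sensing luminal cells. It stood at 30.2, 40.3 and 46.0 CPM in WT and at 38.2, 55.2 and 29.7 CPM in Glis2 KO. The lowest and the highest library were both Glis2 KO, and the log2 fold change was 0.08 (SE 0.24, 95% interval -0.47 to 0.63, edgeR adjusted p = 0.985). *Prom1* is overlapped by *Gm42716* on the same strand, which reached 5.59% of its counts in a library, and by *Gm16401* on the opposite strand, which reached 3.35%. *Prom2*, the other prominin gene, lay between 36.0 and 69.4 CPM in WT and between 42.8 and 70.8 CPM in Glis2 KO.

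*Aldh1a1* (ENSMUSG00000053279, chr19:20492715-20643465, + strand) encodes a retinaldehyde dehydrogenase, an enzyme of the cytosol whose family activity is measured to isolate stem and progenitor cells. It stood at 6.13, 4.59 and 5.14 CPM in WT and at 1.72, 3.87 and 10.4 CPM in Glis2 KO, from 43 to 324 counts per library. The Glis2 KO mice spanned 6.03-fold and enclosed the whole WT range, and the log2 fold change of 0.01 (SE 0.56, 95% interval -1.27 to 1.29, edgeR adjusted p = 0.999) was the least precise of the 10. Added to *Aldh1a7*, whose counts shared the 100-base run printed above, the sum stood at 8.69, 6.72 and 9.06 CPM in WT and at 2.72, 4.94 and 12.8 CPM in Glis2 KO, with a log2 fold change of -0.25 (SE 0.50). *Aldh1a1* made up between 56.8% and 80.6% of that sum.

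*Aldh1a3*, the family member typical of luminal progenitors, was far higher than *Aldh1a1*. It stood between 67.8 and 181 CPM in WT and between 42.0 and 109 CPM in Glis2 KO, with a log2 fold change of -0.60 (SE 0.40, edgeR adjusted p = 0.941), which lay between -0.92 (without Glis2 KO replicate 2) and -0.17 (without WT replicate 2) when 1 library was left out, and was -0.91 without WT replicate 1, -0.32 without Glis2 KO replicate 3 and -0.18 with the basal minus luminal level as a covariate. *C730002L08Rik*, an overlapping transcript on the opposite strand, reached 18.6% of the *Aldh1a1* count in 1 Glis2 KO library.

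**Figure D4:**
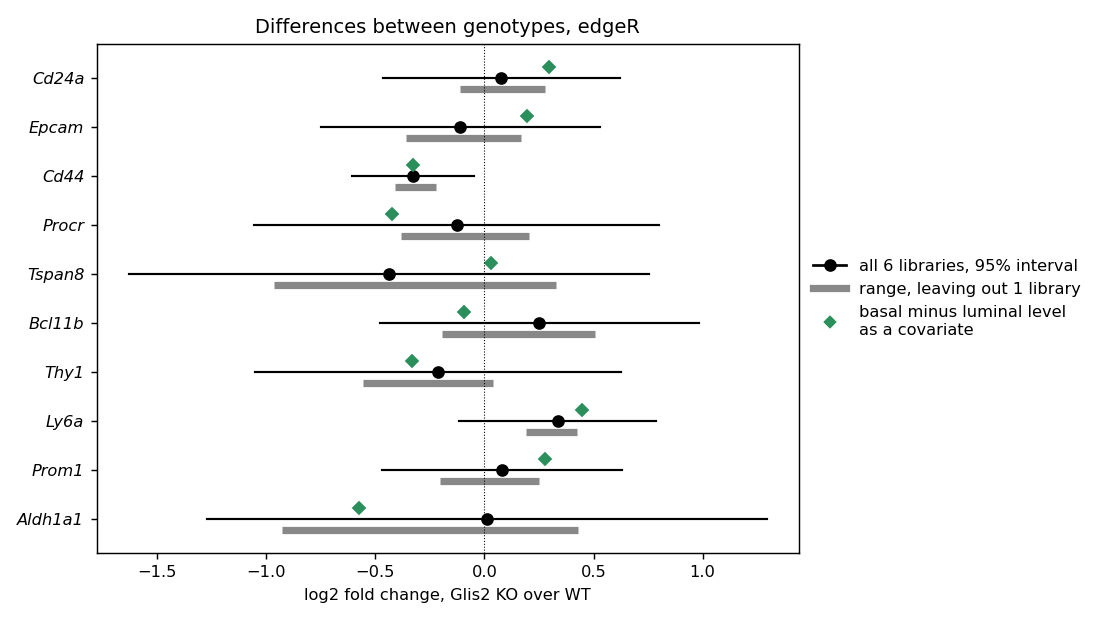
Log2 fold changes of the 10 genes, Glis2 KO over WT. Black points and lines give the edgeR estimate from 6 libraries with its 95% interval, grey bars the range when 1 library is left out, and green diamonds the estimate with the basal minus luminal level of each library as a covariate. The interval excludes 0 for *Cd44* alone, and the grey bar stays on 1 side of 0 for *Cd44* and *Ly6a* alone.

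Across the 6 libraries the genes fell into groups by how they followed the marker levels of the libraries. This was described by the root mean square difference (RMS) between a gene's centred log2 CPM and the centred mean of a marker list over the 6 libraries, where 0 is an identical profile. The lists hold none of the 10 genes. The libraries share depth and marker levels across genes, so these values are descriptive.

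*Epcam* followed the luminal genes most closely, with an RMS of 0.11 to the 10 luminal genes and 0.11 to 8 luminal progenitor genes, against 0.40 to a flat profile. *Tspan8* was nearest to the luminal progenitor genes (0.32, against 0.74 to a flat profile) and far from the basal genes (0.85). *Cd24a* was nearest to the hormone-sensing luminal genes (0.20, against 0.34), and *Prom1* nearest to the same list and to the luminal genes (0.27 each, against 0.31).

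*Thy1* and *Procr* ran the other way. *Thy1* was nearest to the fibroblast genes (0.23, against 0.50 to a flat profile). *Procr* was nearest to the Schwann cell genes (0.32) and fibroblast genes (0.35, against 0.57), followed by the pericyte (0.40) and endothelial genes (0.44). The RMS of *Procr* to the basal genes was 0.64. The Schwann cell list includes *Sox10*, which is also in the list of other stem cell associated genes. Among single genes, *Thy1* was most like *Itm2a* (0.11), *Trarg1* (0.11) and *Smim10l2a* (0.12) over the 6 libraries, *Procr* most like *Gm37033*, *Enkur* and *Gm44434* (0.15 to 0.16), and *Tspan8* most like *Gm47856* (0.18), *Pinc* (0.22) and *Shank2* (0.23). *Cd44* and *Ly6a* were no nearer to any list (0.24 and 0.26) than to a flat profile (0.21 and 0.25). *Bcl11b* was about equally near to the macrophage, other stem cell associated and stain lists (0.30 each, against 0.39 to a flat profile) and farther from the T cell genes (0.67). *Aldh1a1* was nearest to the macrophage genes, at 0.65 against 0.77 to a flat profile, and to *Gm11991* (0.15) among single genes.

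**Figure D5:**
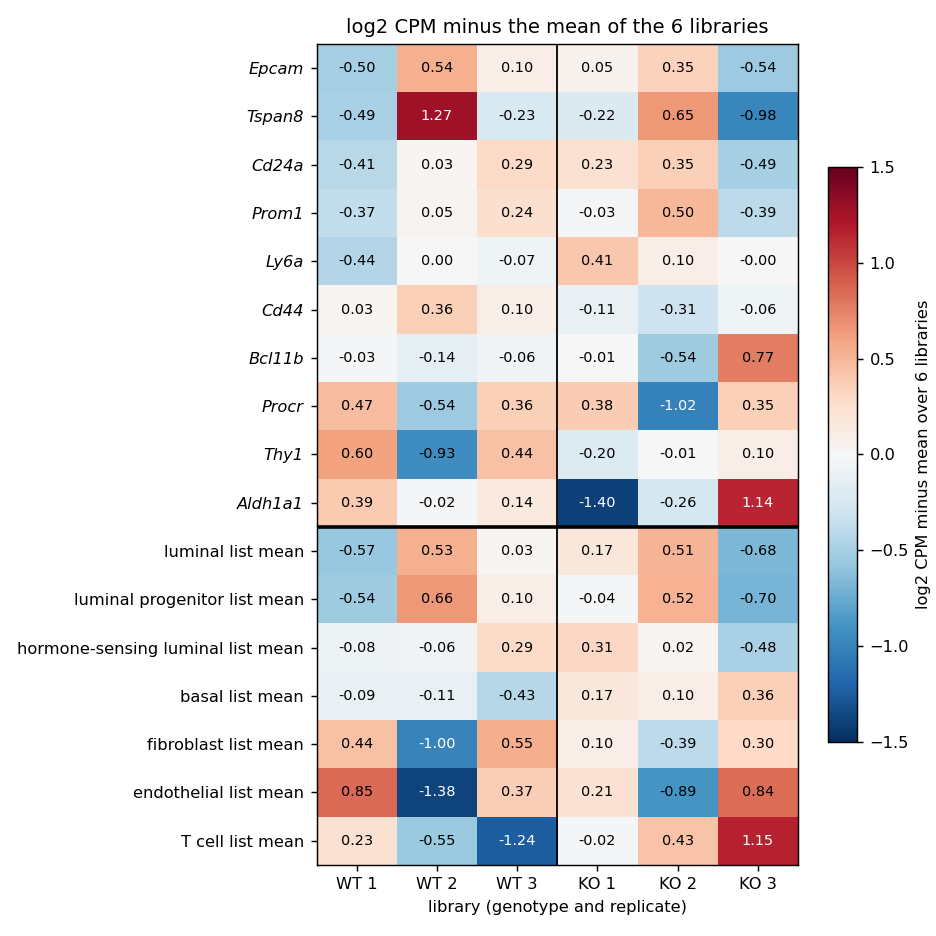
Log2 CPM of each gene (above the line) and mean log2 CPM of 7 marker lists (below it), minus the mean of the 6 libraries, with the value written in each cell. Replicate 2 of each genotype is high in *Epcam*, *Tspan8* and the luminal and luminal progenitor lists and low in *Procr* and in the fibroblast and endothelial lists, whereas the basal list is lower in all 3 WT libraries than in all 3 Glis2 KO libraries.

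With the basal minus luminal level of each library as a covariate, which takes out that difference in marker level and also any part of it that the genotype sets, none of the 10 genes was called. *Cd24a* then had a log2 fold change of 0.30 (SE 0.11, edgeR adjusted p = 0.512), and *Epcam*, *Tspan8*, *Bcl11b* and *Aldh1a1* changed sign, to 0.19, 0.032, -0.092 and -0.58. *Cd44* kept its value, at -0.33 (edgeR adjusted p = 0.541).

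Other genes associated with mammary stem cells were described in the same way. Of 14 such genes, 7 were higher and 7 lower on average in Glis2 KO cells, and 0 were called. The median log2 fold change was 0.02, against 0.01 over all genes. An unadjusted p under 0.05, which 5.32% of all genes reached, was found for 1 gene (*Notch3*, picked for this reason, log2 fold change -0.38, SE 0.12). Values did not overlap for 1 gene higher and 1 gene lower in Glis2 KO, against 11.7% of all genes in either direction. The integrin genes *Itga6* and *Itgb1* were the most abundant, *Itgb1* lying between 538 and 670 CPM in WT and between 529 and 658 CPM in Glis2 KO. The differences furthest from 0 in the test of all 6 libraries were 0.53 (SE 0.47) for *Inpp5d*, which encodes the phosphatase SHIP1, and -0.47 (SE 0.59) for *Nrp1*, which encodes neuropilin 1, and both overlapped between the genotypes. Both genes were lowest in replicate 2 of each genotype, where the summed endothelial and macrophage genes were lowest too. The part of cells outside the epithelium in these 2 genes was not tested. Leaving out 1 library gave 0.15 (without WT replicate 2) to 1.02 (without WT replicate 1) for *Inpp5d*, and -0.98 (without Glis2 KO replicate 3) to -0.09 (without WT replicate 1) for *Nrp1*. *Lgr5*, a Wnt pathway receptor that also labels stem cells of other epithelia and was picked after its values were seen, lay between 28.9 and 58.6 CPM in WT and between 32.5 and 41.8 CPM in Glis2 KO.

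The general markers of the basal layer, in which these stem cells lie, were also measured. Of 10 basal genes, which include keratins and contractile proteins, all 10 were higher on average in Glis2 KO cells, 6 of them at an unadjusted p under 0.05, which 2.99% of all genes reached in this direction, and 0 called, with a median log2 fold change of 0.42. This median was 0.23 with log2(TPM + 1) and 0.28 without WT replicate 3. Their summed level lay between 4683 and 6011 CPM in WT and between 6398 and 7696 CPM in Glis2 KO. The contractile genes *Cnn1* (log2 fold change 0.60, SE 0.13) and *Tagln* (0.59, SE 0.11) had the furthest changes in the list (edgeR adjusted p = 0.849 for each). *Tagln* passed both thresholds without the filter on low counts (0.581, edgeR adjusted p = 0.0411). With DESeq2 its adjusted p was 0.0304 at an unshrunken log2 fold change of 0.579, whereas calls used the value shrunken by apeglm. The direction of the basal genes was known from earlier results of the same libraries and is no independent support.

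Transcripts of cells outside the epithelium are given because *Thy1*, *Cd44*, *Ly6a*, *Procr* and *Bcl11b* are active in such cells. Of 10 T cell genes 9 were higher in Glis2 KO, with a median log2 fold change of 1.17 (0.096 with log2(TPM + 1) and 0.47 with log2(TPM + 0.1)), and the list summed to between 11.4 and 20.5 CPM in WT and between 18.4 and 34.1 CPM in Glis2 KO. *Cd3d*, the most abundant of them, lay between 4.34 and 7.88 CPM in WT and between 3.44 and 7.61 CPM in Glis2 KO, and *Trac*, with the change furthest from 0, between 0.115 and 0.907 CPM in WT and between 0.559 and 3.90 CPM in Glis2 KO. All 4 tested B cell genes were higher, and the 5 genes of the list, *Cd79b* included, which was not tested, summed to 1.99 to 5.70 CPM in WT and to 9.55 to 15.3 CPM in Glis2 KO. The fibroblast genes (3 higher and 7 lower, median -0.10) and the 10 endothelial genes (4 higher and 6 lower, median -0.06) had overlapping sums, and the medians turned with single libraries, to -0.49 without WT replicate 2 and 0.17 without WT replicate 3 for the fibroblast genes, and to -0.56 without Glis2 KO replicate 3 and 0.38 without WT replicate 1 for the endothelial genes. All 6 pericyte genes (median -0.45) and all 5 skeletal muscle genes (median -1.15) were lower on average in Glis2 KO, with 0 called and overlapping sums. Leaving out 1 library moved the pericyte median to between -0.83 (without WT replicate 2) and -0.077 (without WT replicate 1), and the skeletal muscle median to between -1.79 (without Glis2 KO replicate 2) and -0.41 (without WT replicate 3), and with log2(TPM + 1) these medians were -0.27 and -0.30. Their part in the levels of the 5 markers was not tested. With the fibroblast level of each library as a covariate, none of the 10 genes was called, and *Thy1* had a log2 fold change of -0.07.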

How the data were processed

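RNA from sorted mammary epithelial cells of 3 WT and 3 Glis2 KO mice was made into 1 library per mouse, and 40-nt paired reads were sequenced. The authors quantified reads with Salmon 1.2.1 against an Ensembl transcriptome of mm10 with the genome as decoy and deposited estimated counts per gene as whole numbers (assembled with tximport), and log2 values of TPM + 1 in a second table. Whether Salmon was run with a strand setting is not given in the sources used here, so overlapping genes on opposite strands may share reads.

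The counts were compared between genotypes in R 4.3.3 by the quasi-likelihood test of edgeR 4.0.16, after filterByExpr and TMM scaling. Benjamini-Hochberg adjustment covered 21236 genes. No replicate block was used, since the replicate numbers are not known to pair the mice. The study's methods use DESeq2 with apeglm, which was run as an alternative (DESeq2 1.42.0, apeglm 1.24.0) with the study's thresholds. Calls under DESeq2 used the shrunken fold change, and single-gene values and list medians the unshrunken one. Total counts of 24996524 to 31393917 per library give from 43 counts (*Aldh1a1*) to 21125 counts (*Epcam*) per gene and library, and intervals cover the spread between mice.

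The function was tested on simulated data first. The 10 genes and all marker lists were chosen with earlier results of these data known. Named genes outside the 10 are *Glis2*, the genes of the stain, paralogs, the genes that overlap a member, for each list the 2 with the highest mean CPM and the 2 with the largest absolute log2 fold change, and for genes with an SD of at least 0.5 log2 CPM their 3 nearest genes; not all are printed. *Notch3*, *Lgr5*, *Cd79b*, *Ly6i* and *Gm23935* were named outside this rule, after their values were seen. The log2 CPM values used a prior count of 2. Gene positions, overlaps and 31-base words came from GENCODE M21 (GRCm38), which is older than the annotation the authors used. Alternatives were DESeq2 with apeglm, DESeq2 size factors, other filters, limma 3.58.1 on log2 TPM with offsets of 1 and 0.1, a replicate block, 2 marker-level covariates and leaving out each library; sums with paralogs were added after seeing the data.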

Additional observations from a re-analysis of the deposited data

How the results depend on the processing

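None of the 10 genes was called under any of the 15 alternatives. The count over all genes was 45 with DESeq2 and apeglm, 40 without a filter on low counts, 3 with the fibroblast level as a covariate, 1 with limma on log2(TPM + 0.1) and 0 under the others, leaving out each library included (0 to 0). With 3 paralog sums, 120 of 153 values for the 10 genes kept their sign and 33 did not, and *Cd44* and *Ly6a* kept theirs in all. Log2 fold changes that changed sign were, with at least 10 counts in every sample, *Aldh1a1* (-0.003), with log2(TPM + 1), *Cd24a* (-0.11), *Bcl11b* (-0.035), *Prom1* (-0.042), *Thy1* (0.20), *Aldh1a1* (-0.12), *Itga6* (-0.12) and *Bcl11a* (-0.11), with log2(TPM + 0.1), where the median of all genes shifted to -0.14, *Cd24a* (-0.11), *Bcl11b* (-0.12), *Prom1* (-0.052), *Thy1* (0.38), *Aldh1a1* (-0.41), *Itga6* (-0.12) and *Bcl11a* (-0.16), with the fibroblast level, *Aldh1a1* (-0.031), with the basal minus luminal level, *Tspan8* (0.032), *Bcl11b* (-0.092), *Epcam* (0.19), *Aldh1a1* (-0.58), *Itga6* (-0.051) and *Pecam1* (-0.14), and, summed with *Aldh1a7*, *Aldh1a1* (-0.25). Leaving out 1 library gave -0.38 to 0.20 for *Procr*, -0.97 to 0.33 for *Tspan8*, -0.11 to 0.28 for *Cd24a*, -0.19 to 0.51 for *Bcl11b*, -0.36 to 0.17 for *Epcam*, -0.20 to 0.25 for *Prom1*, -0.557 to 0.039 for *Thy1*, -0.93 to 0.43 for *Aldh1a1*, -0.06 to 0.20 for *Itga6*, -0.13 to 0.65 for *Pecam1* and -0.072 to 0.846 for *Ly6c1*. What causes the changes of sign was not tested.

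Whether the replicate numbers pair the mice is not known. Deviations of same-numbered libraries correlated at -0.02, 0.17 and 0.02, and WT replicate 2 was most like Glis2 KO replicate 2. Correlations over so few mice cannot settle this. A replicate block gave 0 called genes, 1287 genes at an unadjusted p under 0.05 (1130 without it), and *Aldh1a1* at -0.32. With 3 mice per genotype the intervals are wide, and what size of change could be detected was not measured for the 10 genes.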
